A study of Mus musculus with 5 samples.

Results

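Metallothionein, iron and heme handling is described here for 10 genes, taken from the 23183 symbols in the deposited tables by exact symbol match: Mt1, Mt2, Slc39a14, Hmox1, Slc40a1, Fth1, Ftl1, Tfrc, Slc11a1 and Cd163. All 10 were among the 14305 genes that averaged 1 CPM (counts scaled to library size) or more over the 5 libraries. RNA came from the whole lung of female wild-type BALB/c mice in 5 groups with 1 library each. Control mice had no treatment, PM10 mice received inhalable airborne particulate matter into the nose 4 times over 2 weeks, and PM10/OVA mice also received the allergen ovalbumin by injection and then into the nose. PM10/OVA/CPX mice had both exposures and an injected inhibitor of chitinase-1 (CPX), given 6 times within 3 weeks. PM10/OVA/Dex mice had both exposures and injected dexamethasone (Dex), a synthetic glucocorticoid, 3 times in the last week. The mice were killed 2 days after their final challenge. The sources used here give no ages, no doses and no statement on pooling of animals, and no group received ovalbumin, the inhibitor or dexamethasone without PM10.

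Metallothioneins are small cysteine-rich proteins that bind zinc and copper, and their genes are switched on by zinc, by the IL-6 cytokine family and by glucocorticoids. Iron enters cells on transferrin through the transferrin receptor or as free iron through Slc39a14, is stored in ferritin, and leaves through ferroportin, the product of Slc40a1. Macrophages take up haemoglobin through Cd163 and break down its heme with heme oxygenase-1, the product of Hmox1, which frees iron. In the lung, alveolar macrophages take up inhaled particles and the iron they carry.

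The 2 metallothionein genes lie 5.513 kb apart on chromosome 8 of GRCm38, Mt2 at 94172664 to 94173568 and Mt1 at 94179082 to 94180327, both on the plus strand. Their promoters are shown because both genes were highest in the same library but to different degrees. Each window runs from 250 bases before to 50 after the start of the gene in RefSeq (GRCm38.p6), at chr8:94178839-94179138 for Mt1 and chr8:94172368-94172667 for Mt2. Capitals mark the core of the metal response element, the letters TGCACNC or TGCGCNC, on either strand.
Mt1 promoter: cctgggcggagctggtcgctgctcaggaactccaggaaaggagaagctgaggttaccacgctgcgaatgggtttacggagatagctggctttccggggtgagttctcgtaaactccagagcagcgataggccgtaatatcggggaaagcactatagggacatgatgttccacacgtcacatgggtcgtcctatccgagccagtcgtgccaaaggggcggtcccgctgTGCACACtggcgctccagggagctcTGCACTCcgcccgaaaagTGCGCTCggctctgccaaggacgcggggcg
Mt2 promoter: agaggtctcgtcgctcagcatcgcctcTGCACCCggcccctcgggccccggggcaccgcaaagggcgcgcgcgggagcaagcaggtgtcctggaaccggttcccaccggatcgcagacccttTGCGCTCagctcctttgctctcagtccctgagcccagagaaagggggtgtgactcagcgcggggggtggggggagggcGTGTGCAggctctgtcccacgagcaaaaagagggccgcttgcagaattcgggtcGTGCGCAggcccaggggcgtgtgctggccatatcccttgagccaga
The Mt1 window held 3 matches and the Mt2 window 4, none overlapping another, where 25.7% of all 32851 promoters in the table held at least 1 and 1.97% held 3 or more. The Mt2 window also held 1 match to the core of the antioxidant response element, TGACNNNGC, with its first base 79 bases before the start, and the Mt1 window held none. That core was in 12.4% of promoters. The STAT core TTCCNGGAA, in 1.15% of promoters, and the full palindromic glucocorticoid response element, in 3 promoters of the table, were in neither window. Bases outside the windows were not searched, so an element absent from a window may still lie near the gene. The part of these matches in the levels of Mt1 and Mt2 was not tested. Of the 10 genes, 7 had a promoter in the table, and none was found there for Slc39a14, Hmox1 and Slc40a1.

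Ferritin, ferroportin and transferrin receptor messages carry iron-responsive elements, hairpins bound by the iron regulatory proteins when iron is scarce. Bound at the 5′ end they hold back translation, and at the 3′ end they protect the message from decay. The sites are shown because they separate the genes whose RNA level is known to follow iron from those regulated at translation, which RNA counts do not measure. Principal GENCODE transcripts on GRCm38 were searched for a C, 5 bases, the loop CAGTGN (N not G) and 5 bases that pair with the first 5, allowing G to pair with T. The hairpin was found in the 5′ UTR of 3 of the 10 genes, against 0.0821% of 21924 coding genes, and in the 3′ UTR of Tfrc alone among the 10, against 0.397%. Each line gives 30 bases with the loop in capitals.
Fth1 5′ UTR, chr19:9982731-9982760, plus strand: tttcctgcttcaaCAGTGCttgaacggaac
Ftl1 5′ UTR, chr7:45459779-45459808, minus strand: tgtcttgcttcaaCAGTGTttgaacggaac
Slc40a1 5′ UTR, chr1:45925465-45925494, minus strand: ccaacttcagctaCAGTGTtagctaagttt
Tfrc 3′ UTR, chr16:32631218-32631247, plus strand: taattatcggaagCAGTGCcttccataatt
Tfrc 3′ UTR, chr16:32631597-32631626, plus strand: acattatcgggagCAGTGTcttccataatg
Tfrc 3′ UTR, chr16:32631662-32631691, plus strand: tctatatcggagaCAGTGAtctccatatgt
Tfrc 3′ UTR, chr16:32631709-32631738, plus strand: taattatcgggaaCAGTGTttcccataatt
Each of these sites is a match to letters and pairing, not a measured hairpin.

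Library totals ran from 11993222 to 16929068 counts. CPM was scaled by TMM (a trimmed mean of log ratios between libraries), with factors between 0.989 and 1.02, and each fold is a ratio of CPM with an exact 95% interval that covers counting error only. With 1 library per group there is no replicate check, and no test between conditions was made. A share of genes at least 2-fold apart on log2(CPM + 1) over all 14305 measured genes stands beside the count of members for each comparison. Lung identity was clear from 8 of 8 alveolar type 2 markers, which summed to 19729 to 24765 CPM in the 5 libraries. The control library stood apart in tissue that borders the lung: 11 heart muscle markers summed to 3461 CPM there and to 269 to 718 CPM in the other libraries, 10 fat markers to 1124 CPM against 583 to 729.6 CPM, 7 cartilage markers to 83.5 CPM against 1.89 to 10.4 CPM, and 6 upper airway and gland markers to 1957 CPM against 382 to 1300 CPM. The dexamethasone library was above PM10/OVA in the same tissues. Markers at least 2-fold higher were 7 of 11 heart, 6 of 10 fat, 3 of 5 measured cartilage and 4 of 6 upper airway. Over all measured genes 1.2% were. Every ratio to control rests on that library, so each is given beside the ratios among the exposed libraries. In whole-lung RNA, fewer cells of a type and less RNA per cell cannot be told apart.

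All 10 genes were highest in the PM10/OVA library, where 19.9% of measured genes had their highest level. Under the 3 other scalings tried, all 10 were highest there as well. Control was the lowest library for 9 of the 10, against 26.3% of measured genes (8 of 10 with scaling by library totals or by upper-quartile factors). Cd163 was the exception, lowest in PM10/OVA/CPX, as were 20.1% of measured genes. Highest over lowest level ran from 1.58-fold for Slc40a1 to 5.96-fold for Mt2, so the genes shared the highest library but not the size of the difference.

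**Figure D1:**
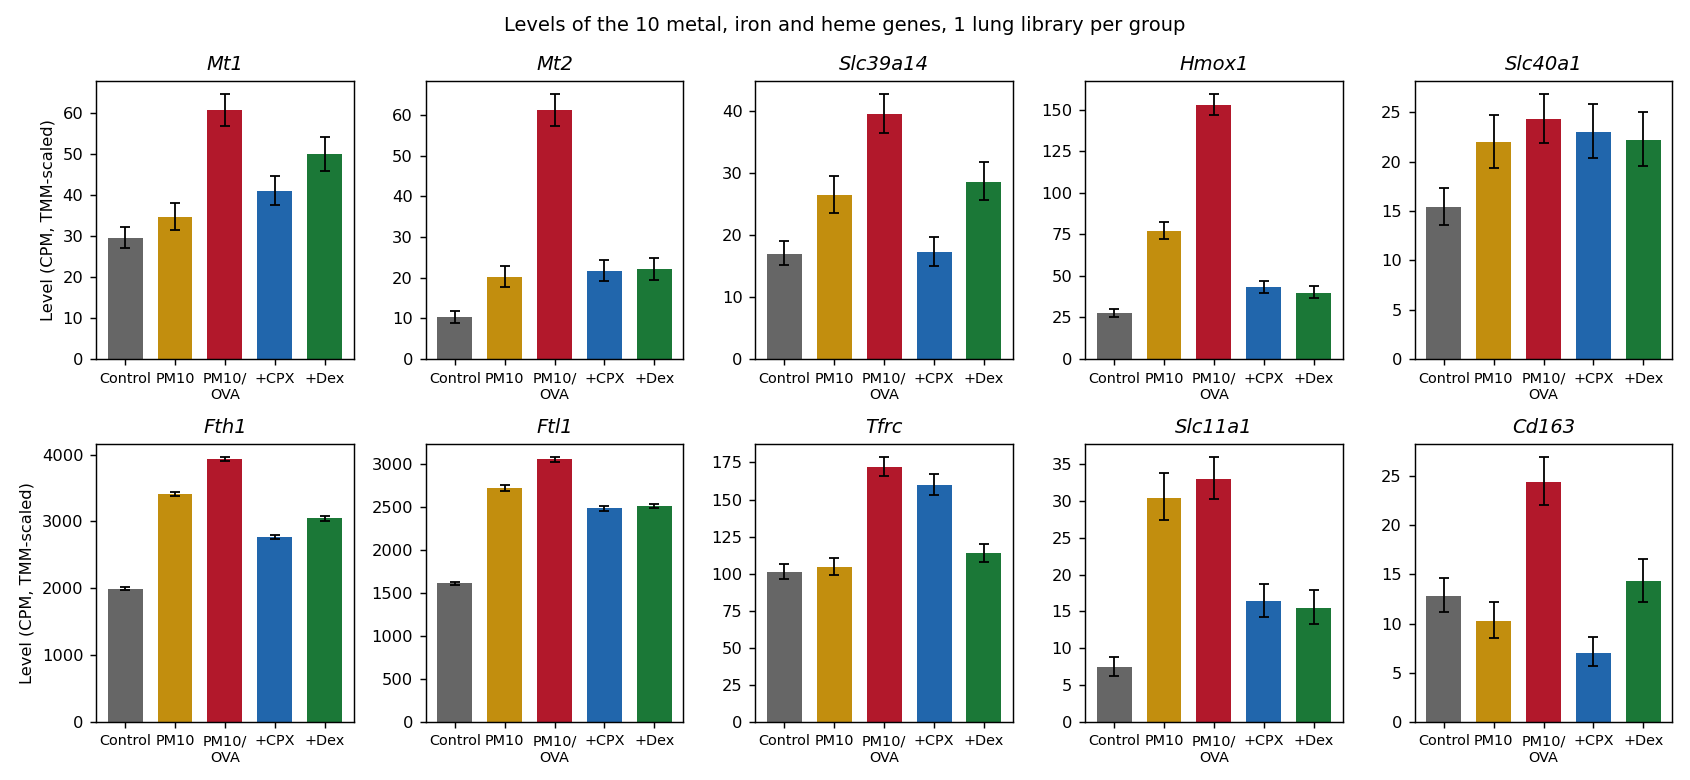
Level (CPM, TMM-scaled, linear axis from 0) of each of the 10 genes in the 5 libraries, 1 bar per library, with bars labelled +CPX and +Dex for PM10/OVA/CPX and PM10/OVA/Dex. Error bars are exact 95% Poisson intervals for counting error only, and the PM10/OVA bar is the tallest in every panel.

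Metallothionein genes differed from each other in how far they stood out in PM10/OVA. Mt2 was at 10.3 CPM in control, 20.1 with PM10, 61.1 with PM10/OVA, 21.7 under CPX and 22.1 under Dex. The PM10, CPX and Dex libraries held near-equal levels of Mt2, with folds between neighbours in this order whose intervals included 1, and PM10/OVA was far above them. Mt2 was 3.04-fold higher in PM10/OVA than in PM10 (2.64 to 3.51), 2.81-fold lower in PM10/OVA/CPX than in PM10/OVA (2.46 to 3.23) and 2.76-fold lower in PM10/OVA/Dex (2.41 to 3.18). Mt1 was at 29.5, 34.7, 60.7, 41.0 and 49.9 CPM over the libraries listed likewise. Each step in the order of its levels exceeded counting error, but the steps were small, 1.18- to 1.22-fold. Mt1 was 1.75-fold higher in PM10/OVA than in PM10 (1.56 to 1.97), 1.48-fold lower with the inhibitor (1.33 to 1.65) and 1.21-fold lower with dexamethasone (1.10 to 1.35).

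The share of Mt2 in the counts of both genes is free of scaling between libraries. It was 25.8% in control (exact Clopper-Pearson interval 22.6 to 29.2), 36.7% with PM10 (33.0 to 40.5), 50.2% with PM10/OVA (47.9 to 52.4), 34.6% under CPX (31.3 to 38.0) and 30.7% under Dex (27.6 to 33.9). Mt2 was the minor part of the pair in 4 libraries and at equal counts in PM10/OVA. Per kb of transcript, Mt1 was at 53.8 and Mt2 at 20.1 CPM in control, and at 110.5 and 119.6 CPM in PM10/OVA. An antisense gene model, Gm45774, overlaps 749 bases of Mt2 and is no row of the tables. The sources used here do not give the strand setting of the counting, so reads from the antisense strand could count towards Mt2. Of the other family members, Mt3 had 32 counts in control, 0 with PM10, 1 with PM10/OVA, 9 under CPX and 6 under Dex, and Mt4 had 0 in all 5.

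**Figure D2:**
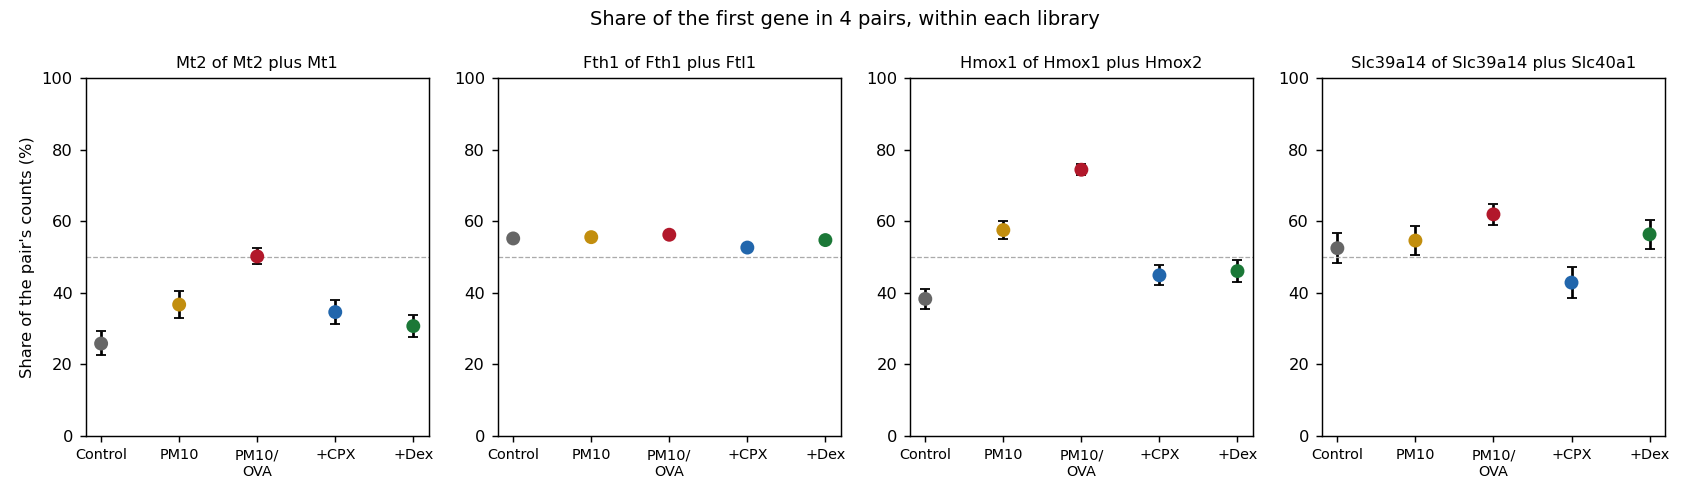
Share (%) of the first gene in the counts of 4 gene pairs within each library, with exact 95% binomial intervals, groups labelled as in the plot of levels and a dashed line at equal counts. The Mt2 share runs from 25.8% in control to 50.2% in PM10/OVA, the Fth1 share stays between 52.7% and 56.2%, and the Hmox1 share is highest in PM10/OVA.

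Slc39a14, which carries zinc, manganese and free iron across the cell membrane and is known to be induced with metallothioneins in inflammation, was at 17.0 CPM in control, 26.4 with PM10, 39.6 with PM10/OVA, 17.2 under CPX and 28.7 under Dex. The inhibitor library was at the control level, with a ratio of 1.01 (0.847 to 1.21). The dexamethasone library sat at the PM10 level, 1.09-fold higher (0.929 to 1.27). Between the treated libraries Slc39a14 was 1.66-fold higher with dexamethasone (1.40 to 1.98), whereas Mt2 was at the same level in both within counting error.

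Genes of metal transport beyond these were mostly even. In a list of 28 measured zinc and copper genes, 1 was higher by 2-fold or more and 0 lower in PM10 and in PM10/OVA against control (3.7% and 3.17% of measured genes were higher), with medians of 0.05 in both where the medians over all measured genes were -0.00 and 0.01. That gene was the zinc importer Slc39a2, at 2.94 CPM in control, 17.7 with PM10, 9.97 with PM10/OVA, 11.3 under CPX and 8.75 under Dex. Mtf1, the metal-sensing transcription factor of metallothionein genes, stayed between 31.2 and 35.4 CPM. Slc30a1, a zinc exporter that is a known target of that factor, was at 97.4 CPM in control and at 84.99 to 102.7 CPM in the exposed libraries, lowest in PM10 and not highest in PM10/OVA. The level of Slc30a1 did not follow that of Mt1 and Mt2. The part of zinc and of Mtf1 in the metallothionein levels was not tested.

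Part of a list of IL-6 family genes, acute-phase genes and the inflammatory cytokine genes Il1b and Tnf was high in the same library. Of its 10 measured genes, 6 passed 2-fold upward in PM10/OVA against control, Il6, Socs3, Il1b, Tnf, Osm and Saa3. The median log2 ratio of the list was 1.86, and 3.17% of all measured genes passed. Against PM10/OVA, 4 were at least 2-fold lower with the inhibitor, Il6, Il1b, Tnf and Saa3 (0.762% of measured genes). With dexamethasone 5 were, the same genes and Osm (1.6%). The receptor genes Il6ra and Il6st and the cytokine gene Lif were no higher in PM10/OVA than in control, at 44.7 against 44.9 CPM, 423 against 461 CPM and 4.29 against 4.67 CPM. Il6 itself had 2 counts in control, 10 in PM10, 58 in PM10/OVA and 5 in each treated library. Socs3, a feedback inhibitor of IL-6 signalling, was at 25.9, 53.0, 84.6, 47.6 and 66.3 CPM in the order of groups used above. Their part in the metallothionein levels was not tested. In a list of 14 glucocorticoid targets, 2 were higher by 2-fold or more and 1 lower in PM10/OVA/Dex than in PM10/OVA (1.2% and 1.6% of measured genes), with a median of 0.47 where that over all measured genes was -0.01. Both metallothioneins were lower in that comparison. Against the inhibitor library, Mt1 was 1.22-fold higher with dexamethasone (1.08 to 1.37) and Mt2 did not differ beyond counting error. The part of dexamethasone in the metallothionein levels was not tested.

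Hmox1, heme oxygenase-1, had the widest range of the 10 genes after Mt2. It was at 27.7 CPM in control (481 counts), 77.3 with PM10 (933), 153.1 with PM10/OVA (2427), 43.3 under CPX (542) and 40.0 under Dex (476). PM10/OVA was highest, PM10 stood between it and the others, and the 2 treated libraries did not differ beyond counting error (1.08-fold, 0.954 to 1.23). Hmox1 was 2.79-fold higher in PM10 than in control (2.49 to 3.12), 1.98-fold higher in PM10/OVA than in PM10 (1.84 to 2.14), 3.54-fold lower with the inhibitor (3.22 to 3.89) and 3.82-fold lower with dexamethasone (3.47 to 4.23). Both treated libraries were below PM10 alone, by 1.79-fold for the inhibitor (1.60 to 1.99) and 1.93-fold for dexamethasone (1.73 to 2.16). Both were above control, at 1.56-fold (1.38 to 1.77) and 1.44-fold (1.27 to 1.64). Hmox1 is known to be high in macrophages. Of 14 alveolar macrophage markers, all with counts in every library, 5 passed 2-fold upward and 2 downward in PM10 against control (median 0.67). Among 16 interstitial macrophage markers 5 and 0 did, and among all measured genes 3.7% and 2.04%. The 2 downward were Fabp4, at 175.6 CPM in control and 23.3 with PM10, and Cidec, at 43.2 and 13.6 CPM. Cidec is also among the fat markers, whose sum was highest in control. In PM10/OVA against PM10, 0 of the 14 passed in either direction (0.692% and 1.27% of measured genes). With the inhibitor 3 of the 14 were higher and 1 lower than in PM10/OVA (0.636% and 0.762%). They summed to 933 CPM in control, 1322 with PM10, 1509 with PM10/OVA, 5783 under CPX and 2585 under Dex, with 4455 CPM under CPX from Chil3 alone. Their part in the Hmox1 level was not tested.

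Hmox2, the constitutive heme oxygenase, stayed between 44.7 and 57.0 CPM. Hmox1 made up 38.3% of the counts of both enzymes in control (35.6 to 41.0), 57.6% with PM10 (55.1 to 60.0), 74.4% with PM10/OVA (72.9 to 75.9), 44.9% under CPX (42.1 to 47.8) and 46.1% under Dex (43.0 to 49.2). The enzymes that follow, the biliverdin reductases, were at 20.5 to 35.8 CPM for Blvra and 23.0 to 28.5 CPM for Blvrb. In a list of 21 measured genes of heme synthesis, breakdown and transport, 1 passed 2-fold upward in PM10/OVA against control and none downward (3.17% and 2.73% of measured genes), with a median of 0.12. That gene was Hpx, hemopexin, which binds free heme. It had 10 counts in control, 38 with PM10, 226 with PM10/OVA, 19 under CPX and 12 under Dex, 24.7-fold higher in PM10/OVA than in control (13.2 to 52.3). NRF2 is a transcription factor that induces Hmox1 together with other antioxidant genes. Of 14 measured genes of the NRF2 list, Slc7a11, a cystine transporter, passed 2-fold upward in PM10/OVA against control, none passed downward, and the median was 0.14. Against control, 9 of the 14 were above 0 in PM10/OVA, where 51.3% of all measured genes were. In PM10/OVA against PM10, none passed 2-fold, but 12 of the 14 were above 0 (50.7% of measured genes), with a median of 0.32. Gclc, a subunit of the enzyme that starts glutathione synthesis, was at 78.99, 96.8, 146, 124 and 105 CPM over the 5 groups as ordered before. Srxn1, a repair enzyme of peroxiredoxins, was at 21.8, 29.99, 38.6, 28.8 and 28.5 CPM, and Txnrd1, thioredoxin reductase, at 82.9, 86.1, 119.98, 98.2 and 97.3 CPM. These 3 were highest in PM10/OVA, whereas Nqo1, another NRF2 target, was at 5.63 to 7.29 CPM and highest in PM10. Me1, Gsta3 and Gstm1, from the same list, were highest in control. They were at 183.5, 90.6 and 402 CPM in control and at 101.3, 63.2 and 272.7 CPM in PM10/OVA. Me1 was 2.45-fold lower in PM10 than in control (2.28 to 2.64). The part of NRF2 in the Hmox1 level was not tested.

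Ferritin genes were the most abundant of the 10 and moved together. Fth1, the heavy chain with ferroxidase activity, was at 1991 CPM in control, 3409 with PM10, 3934 with PM10/OVA, 2767 under CPX and 3044 under Dex. Ftl1, the light chain, was at 1615, 2725, 3060, 2487 and 2515 CPM, listed likewise. The 4 exposed libraries were all above control, and most of the distance was already there in PM10: 1.71-fold for Fth1 (1.69 to 1.74) and 1.69-fold for Ftl1 (1.66 to 1.71). The addition of ovalbumin went with 1.15-fold for Fth1 (1.14 to 1.17) and 1.12-fold for Ftl1 (1.11 to 1.14), beyond counting error but small, and with the trend over transcript length subtracted the log2 ratio of Ftl1 went from 0.17 to -0.01. Neither gene reached 2-fold in any comparison. Against PM10/OVA, Fth1 was 1.42-fold lower with the inhibitor (1.40 to 1.44) and 1.29-fold lower with dexamethasone (1.28 to 1.31), and Ftl1 was 1.23-fold (1.21 to 1.25) and 1.22-fold lower (1.20 to 1.23).

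Fth1 was 55.2% of the counts of both chains in control, 55.6% with PM10, 56.2% with PM10/OVA, 52.7% under CPX and 54.8% under Dex. The inhibitor library was the lowest, with an interval of 52.3 to 53.0 that did not reach those of the others. That interval covers counting error only and not the trend over transcript length. In PM10/OVA/CPX against control the trend was 0.18 for Fth1 and 0.29 for Ftl1, beside log2 ratios of 0.47 and 0.62. In PM10/OVA/CPX against PM10/OVA it was 0.03 and 0.08, beside log2 ratios of -0.51 and -0.30. Whether transcript length bears on the share was not tested. Per kb of transcript Ftl1 was the higher chain, at 1669 to 3161 CPM against 1333 to 2633 CPM for Fth1. GENCODE holds 14 further gene models named as ferritin pseudogenes or paralogs, none of which is a row of the tables under that name, so counts from near-identical copies may be included or lost. The carrier protein Ncoa4, which brings ferritin to the lysosome, stayed between 197.4 and 230.5 CPM.

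Slc40a1, ferroportin, the only known exporter of iron from cells, was the most even of the 10. It was at 15.4 CPM in control, 22.0 with PM10, 24.3 with PM10/OVA, 23.0 under CPX and 22.2 under Dex. The 4 exposed libraries did not differ from each other beyond counting error, and all were above control, PM10 by 1.43-fold (1.20 to 1.70). Hamp, which encodes the hormone hepcidin that degrades ferroportin, had 322 counts in control, 43 with PM10, 24 with PM10/OVA, 13 under CPX and 55 under Dex. It was 5.21-fold lower in PM10 than in control (3.78 to 7.34). Hamp is known to be expressed in the heart as well as in the liver. The 11 heart muscle markers were lower beside it by a median log2 ratio of -2.02. Of these, 11 of 11 were at least 2-fold lower (2.04% of measured genes). The 7 liver markers summed to 0.746 to 4.44 CPM. Whether heart tissue in the control piece set the level of Hamp was not tested.

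Tfrc, the transferrin receptor, was close to its PM10/OVA level with the inhibitor and close to control with dexamethasone. It was at 101.3 CPM in control, 104.5 with PM10, 172.1 with PM10/OVA, 159.8 under CPX and 113.6 under Dex. Control and PM10 did not differ beyond counting error (1.03-fold, 0.958 to 1.11), so Tfrc was the gene for which PM10 alone differed least from control. PM10/OVA was 1.65-fold above PM10 (1.54 to 1.76). The inhibitor library was 1.08-fold below PM10/OVA (1.02 to 1.14) and the dexamethasone library 1.52-fold below it (1.42 to 1.62). Dexamethasone against inhibitor was 1.41-fold lower (1.31 to 1.51). Of the PM10/OVA excess over control, 82.5% was left with the inhibitor and 17.4% with dexamethasone. Fth1 was instead 1.10-fold higher with dexamethasone than with the inhibitor (1.08 to 1.12), and Ftl1 did not differ between them beyond counting error.

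Tfrc is high in dividing cells and in red cell precursors. The 12 dividing cell markers summed to 67.5 CPM in control, 286 with PM10, 124 with PM10/OVA, 137 under CPX and 85.8 under Dex, so they were highest in PM10, where Tfrc was near control. Of 15 erythroid markers, 12 to 14 had counts, with Hbb-bs at 0 in all. They summed to 2371 CPM in PM10 and to 3307 to 3921 CPM in the other libraries. The globin genes Hbb-b1 and Hba-a1 held 2223 and 895 CPM of the 3737 CPM in control, so the sums mainly follow them. In PM10/OVA against PM10, 9 of 9 measured erythroid markers were above 0 (median log2 ratio 0.50), none by 2-fold. Against PM10/OVA, 2 of the 9 were above 0 with the inhibitor and 2 with dexamethasone. The part of these cells in the Tfrc level was not tested. Ireb2 and Aco1, which encode the iron regulatory proteins that bind the sites shown above, stayed at 87.6 to 98.8 CPM and 78.6 to 88.3 CPM.

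Slc11a1, a metal transporter of the phagosome in macrophages and neutrophils, was higher with PM10, with no further difference beyond counting error when the allergen was added. BALB/c mice are known to carry an allele of it whose protein does not function. Its RNA was at 7.38 CPM in control, 30.5 with PM10, 33.1 with PM10/OVA, 16.4 under CPX and 15.5 under Dex. PM10 was 4.13-fold above control (3.37 to 5.09), and PM10/OVA did not differ from PM10 beyond counting error (1.08-fold, 0.947 to 1.24). Both treated libraries were lower than PM10/OVA, by 2.02-fold with the inhibitor (1.72 to 2.38) and 2.14-fold with dexamethasone (1.80 to 2.54), and higher than control. Of 12 monocyte markers, 5 were at least 2-fold higher in PM10 than in control and none was at least 2-fold lower (3.7% and 2.04% of measured genes). Of 13 measured neutrophil markers, 3 were higher and 1 lower in PM10 against control. In PM10/OVA against PM10, where Slc11a1 was level, 7 of the 13 were higher and none lower (0.692% and 1.27% of measured genes). With dexamethasone against PM10/OVA, 4 of the 12 monocyte markers (median -0.78) were at least 2-fold lower, as Slc11a1 was. So were 4 of the 13 neutrophil markers (median -0.81), and with the inhibitor 1 of each. Of 14 alveolar macrophage markers, 12 were instead above 0 with dexamethasone (median 0.53) and 11 with the inhibitor (median 0.59). By 2-fold, 2 of them were higher and 0 lower with dexamethasone, and 3 and 1 with the inhibitor. The 16 interstitial macrophage markers had medians of -0.02 and -0.03. Over all measured genes 1.2% were higher and 1.6% lower with dexamethasone, and 0.636% and 0.762% with the inhibitor. The part of these cells in the Slc11a1 level was not tested.

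Cd163, the macrophage receptor for haemoglobin bound to haptoglobin, had an order of its own. It was at 12.8 CPM in control (222 counts), 10.3 with PM10 (124), 24.4 with PM10/OVA (387), 7.03 under CPX (88) and 14.3 under Dex (170). Only PM10/OVA stood above control, by 1.91-fold (1.61 to 2.26), while PM10 and PM10/OVA/Dex did not differ from control beyond counting error. PM10/OVA was 2.38-fold above PM10 (1.94 to 2.93), a call that ended with a pseudocount of 5, at a log2 ratio of 0.95. The inhibitor library was 3.47-fold below PM10/OVA (2.75 to 4.43) and 1.82-fold below control (1.42 to 2.36), the one case among the 10 genes of a treated library below control beyond counting error. Dexamethasone was 2.03-fold above the inhibitor (1.56 to 2.66), though on log2(CPM + 1) that ratio was 0.93 and did not count as 2-fold.

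Other markers of interstitial macrophages were mixed, some high with Cd163 in PM10/OVA and some not. Without Cd163, 17 of 17 had counts in every library, and they summed to 4545 CPM in control, 3896 with PM10, 3890 with PM10/OVA, 4071 under CPX and 4824 under Dex. Cbr2 alone contributed 3527 CPM of the control sum, 2334 CPM of the PM10/OVA sum and 3329 CPM of the Dex sum. The sums therefore mainly follow that gene and do not measure these macrophages. In PM10 against control the sum was lower, yet 10 of the 16 measured markers were above 0 (median log2 ratio 0.53). Of the 16 measured, Pf4 and Ccl8, 2 in all, passed 2-fold upward in PM10/OVA against PM10 (0.692% of measured genes), and Pf4 and F13a1, again 2, passed it downward with the inhibitor against PM10/OVA (0.762%), both in the direction of Cd163. Pf4 was at 10.4, 15.4, 50.3, 18.2 and 18.3 CPM over the 5 groups as ordered before. F13a1 was at 44.8, 28.5, 45.6, 20.8 and 44.4 CPM, lowest with the inhibitor as Cd163 was. Ccl8, at 1.499, 29.9, 69.3, 120.01 and 94.8 CPM, was instead highest there. The part of these cells in the Cd163 level was not tested. Mrc1, another receptor of resident macrophages, was at 156.3, 238.5, 287.5, 302.3 and 235.7 CPM in the order of groups used above, and Lyve1 at 203.8, 251.8, 328.5, 300.5 and 276.7 CPM. Hp, which encodes haptoglobin, was at 606, 646, 979, 463 and 797 CPM. It was 1.52-fold higher in PM10/OVA than in PM10 (1.48 to 1.56) and 2.12-fold lower with the inhibitor (2.05 to 2.18), so ligand and receptor were both lowest in the inhibitor library.

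Counts by comparison are set against all measured genes. In PM10 against control 2 of the 10 genes were at least 2-fold higher, Hmox1 and Slc11a1, and 0 lower, where 3.7% of measured genes were higher and 2.04% lower. In PM10/OVA against PM10 2 were higher, Mt2 and Cd163, with a background of 0.692%, and 0 were lower (1.27%). In PM10/OVA against control 5 were higher, Mt1, Mt2, Slc39a14, Hmox1 and Slc11a1, with a background of 3.17%, and 0 were lower (2.73%). Mt1 passed by little, at a log2 ratio of 1.02, and was below 2-fold with 4 of the 8 other settings, from 0.79 to 0.98. The filter settings among the 8 could not move its ratio. The median log2 ratio of the 10 was 0.68, 0.64 and 0.998 in these comparisons, with medians over all measured genes between -0.00 and 0.01.

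In PM10/OVA/CPX against PM10/OVA 4 of the 10 were at least 2-fold lower, Mt2, Slc39a14, Hmox1 and Cd163, where 0.762% of measured genes were, and 0 were higher (0.636%). Under PM10/OVA/Dex against PM10/OVA 3 were lower, Mt2, Hmox1 and Slc11a1, with a background of 1.6%, and 0 were higher (1.2%). Slc11a1 was at -0.97 with the inhibitor and -1.05 with dexamethasone, on either side of the threshold by little. The medians of the 10 were -0.76 and -0.52. Both comparisons share the PM10/OVA library, in which all 10 genes were highest, so that every ratio was below 0 in both. Dexamethasone against inhibitor had 0 of 10 past 2-fold in either direction, where 1.06% of measured genes were higher and 0.734% lower, and 6 of the 10 were above 0. Against control, 2 genes passed 2-fold upward with the inhibitor, Mt2 and Slc11a1 (background 2.73%), and 1 with dexamethasone, Mt2 (1.57%). None was lower (2.99% and 2.01%), and all 3 calls were lost with a pseudocount of 5 and also with the trend over transcript length subtracted.

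**Figure D3:**
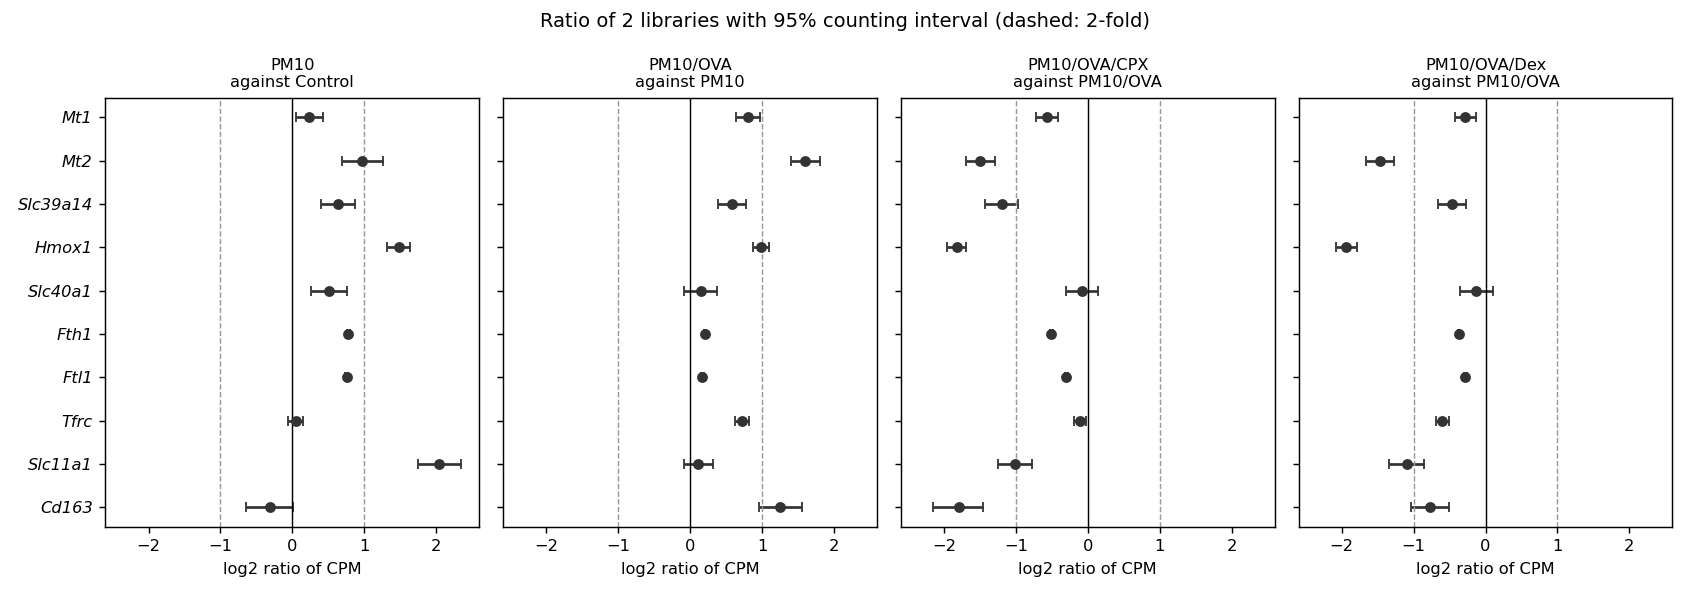
log2 ratio of CPM for each of the 10 genes in 4 comparisons of 2 libraries, with exact 95% intervals for counting error, a solid line at equal levels and dashed lines at 2-fold. All 10 genes are above 0 in PM10/OVA against PM10 and below 0 in both treated libraries against PM10/OVA, and intervals of Slc40a1 include 0 in the last 3 panels.

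Across genes the ratio depended on transcript length, which bears on the short metallothionein and ferritin messages. Spearman's rho between length and log2 ratio over 14221 measured genes was -0.34 in PM10/OVA against PM10, -0.11 in the inhibitor comparison and 0.12 in the dexamethasone comparison. Genes share these libraries and are not independent replicates. With the trend subtracted, Mt2 was at 1.28 in PM10/OVA against PM10 in place of 1.56, and Mt1 at 0.52 in place of 0.79. Mt1 and Mt2 are near-equal in length, 549 and 511 bases, and the trend subtracted from that comparison was 0.26 for Mt1 and 0.27 for Mt2. In PM10/OVA/CPX against control the trend was larger, 0.41 for Mt1, 0.43 for Mt2 and 0.29 for Ftl1.

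The wider list of iron genes, 36 of them measured, held genes past 2-fold in both directions and had medians near 0. In PM10/OVA against control 3 were higher by 2-fold or more and 4 lower (3.17% and 2.73% of measured genes), with a median of 0.03. Higher were Lcn2, a protein that binds bacterial iron carriers, Steap4, a metal reductase induced by inflammation, and Cp, ceruloplasmin, which oxidises exported iron. Lcn2 was at 68.6, 980, 1390, 716 and 462 CPM over the 5 groups as ordered before, and Steap4 at 33.3, 114.1, 164.7, 131.3 and 98.1 CPM. Cp was at 236.9, 529.7, 649.5, 531.1 and 454.8 CPM. All 3 were highest in PM10/OVA and lowest in control.

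Lower were Ltf, Scara5, Hamp and Hfe2. Ltf, lactoferrin, was at 409.5, 92.9, 88.9, 78.97 and 305.4 CPM, with control and Dex above the rest. Ltf is one of the 6 upper airway and gland markers, and Bpifa1, Krt5 and Krt15 also had control and Dex above the rest. Reg3g was highest in Dex with control below PM10/OVA, and Muc5b was highest in the inhibitor library. Their part in the Ltf level was not tested. Scara5, a receptor for ferritin, had 486, 210, 95, 180 and 346 counts and stood at 28.02, 17.4, 5.99, 14.4 and 29.1 CPM, lowest in PM10/OVA. It was 2.90-fold lower there than in PM10 (2.27 to 3.74), 2.40-fold higher with the inhibitor (1.86 to 3.11) and 4.86-fold higher with dexamethasone (3.86 to 6.16). In these comparisons the direction was opposite to that of the ferritin genes. Control and Dex were the highest libraries for Scara5, as they were for Ltf. The part of bordering tissue in the Scara5 level was not tested. Trf, transferrin, stayed between 356 and 461 CPM, and Slc11a2, the transporter that moves iron out of the endosome, between 49.9 and 59.2 CPM.

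**Figure D4:**
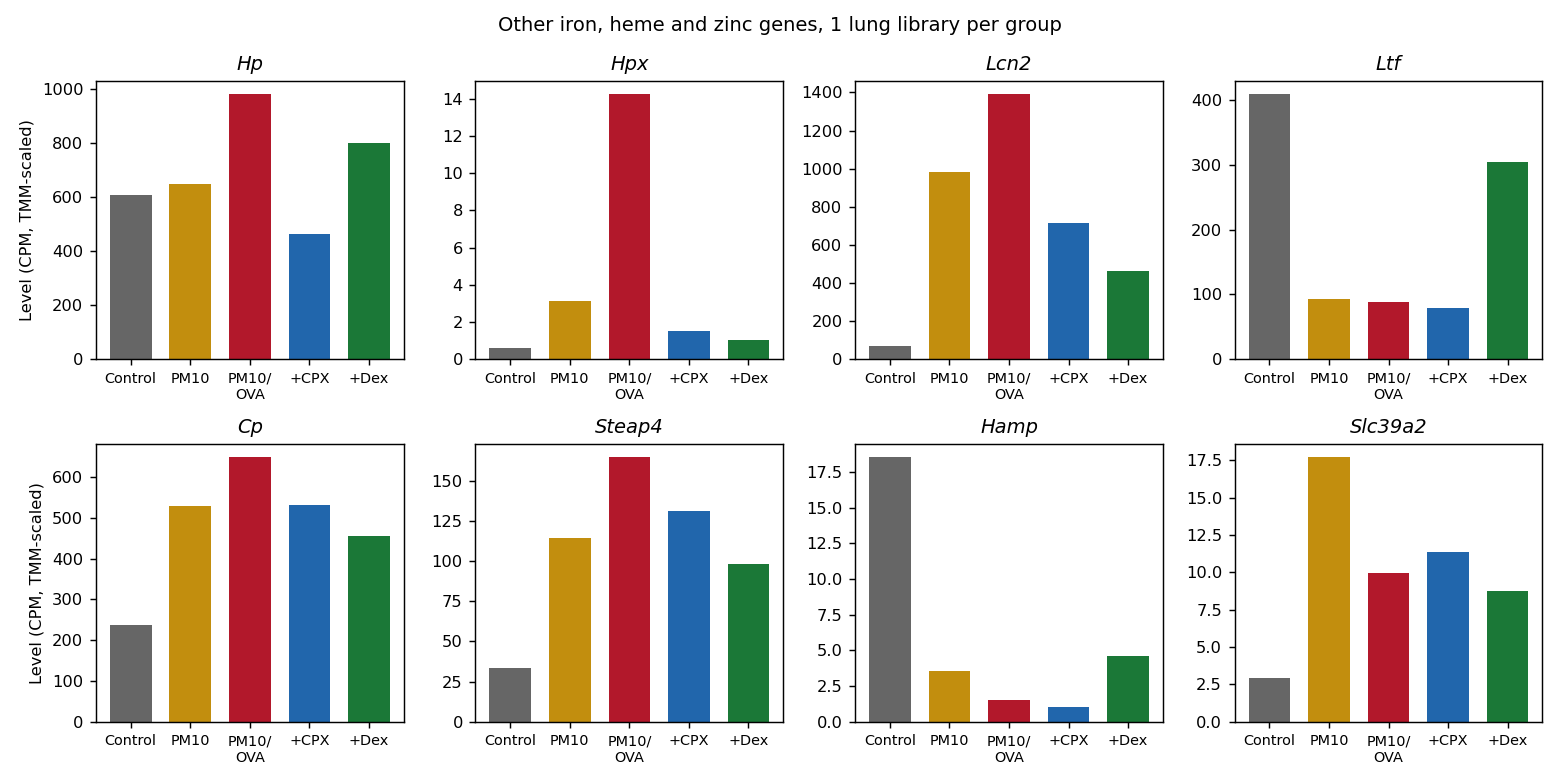
Level (CPM, TMM-scaled, linear axis from 0) of 8 further iron, heme and zinc genes in the 5 libraries, 1 bar per library, labelled as in the plot of levels. Hpx, Lcn2, Cp and Steap4 are highest in PM10/OVA, Ltf and Hamp in control, and Slc39a2 in PM10.

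Genes with the most similar course over the 5 libraries were sought among 11984 genes with a mean of 5 CPM or more by the root mean square difference of centred log2(CPM + 1) values. For Mt1 they were Gadd45g (0.09), Creld2 (0.11) and Manf (0.12). Hmox1 had Marcksl1 (0.17), Il4i1 (0.21) and Nlrp3 (0.22) nearest, and those near Tfrc included Serpinb1a (0.06) and Mrps16 (0.08). Nearest to Cd163 were Hp (0.23), C5ar1 (0.28) and F13a1 (0.29), at a greater distance than for the other 3 genes. These are descriptions over 5 libraries.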

How the data were processed

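Whole-lung RNA was sequenced in 5 libraries, 1 per group, so every comparison is between 2 libraries and has no test. Trizol extraction and a directional library kit are stated per the labels' protocols, and TopHat and mm10, the assembly called GRCm38 elsewhere, per the submitters' processing notes. Not given in the sources used here: aligner version, counting tool, annotation, strand setting. Each table deposited by the authors holds raw read counts for 23183 gene symbols. Counts were scaled to CPM with TMM factors (edgeR 4.0.16, R 4.3.3). Genes averaging 1 CPM or more were called measured. A call is 2-fold or more on log2(CPM + 1), a scale that shrinks the ratios of low genes. Folds carry exact conditional (Clopper-Pearson) 95% intervals, which cover counting error only, as do the Poisson and binomial intervals. Folds and calls were tested on simulated Poisson counts with planted changes. Those counts held no variation between animals and no length trend, so the check covers counting error only.

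Lengths and coordinates are from GENCODE M21 (longest principal transcript) and promoters from RefSeq, GRCm38.p6. Named were all 10 genes, up to 4 genes of largest ratio per related list and comparison, and the 3 genes of most similar course for 4 members, 1 of which is not reported here. Outside that rule, and chosen after their values were seen, were Mtf1, Slc30a1, Hmox2, Blvrb, Nqo1, Il6ra, Il6st, Lif, Ncoa4, Ireb2, Aco1, Trf, Slc11a2, Cp and the single marker genes. The members, lists and comparisons were chosen with earlier results of these data known. Alternatives were 3 other scalings, pseudocounts of 0.25 and 5, no filter or 5 CPM, and a lowess trend over length subtracted.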

Additional observations from a re-analysis of the deposited data

How the results depend on the processing

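Depth limits the low genes: 1 count was worth 0.0577 to 0.0841 CPM, and Cd163 rested on 88 to 387 counts. No replicate could be left out with 1 library per group. No paired analysis was possible because each group has 1 library. Of 80 log2 ratios of the 10 genes in 8 comparisons, none past 2-fold changed sign under any alternative. The filter settings cannot move a ratio, and a pseudocount cannot change its sign. Only the other scalings and the length trend could have changed a sign. Small ratios changed sign in 3 cases, Tfrc in PM10 against control with upper-quartile factors (-0.01), Slc39a14 in PM10/OVA/CPX against control with library totals (-0.02) and Ftl1 in PM10/OVA against PM10 with the length trend subtracted (-0.01). The largest shift was 0.43, for Mt2 in PM10/OVA/CPX against control with the length trend subtracted. The number of members at least 2-fold apart in PM10/OVA against PM10 was 1 with a pseudocount of 5 in place of 2. In PM10/OVA/CPX against control it was 1 with library totals, 1 with upper-quartile factors, 0 with a pseudocount of 5 and 0 with the length trend subtracted, in place of 2. In PM10/OVA/Dex against control it was 0 with library totals, 2 with a pseudocount of 0.25, 0 with a pseudocount of 5 and 0 with the length trend subtracted, in place of 1. The other 5 comparisons kept their count of members within 1.5 times under all 8 alternatives, though the filter settings could not change a count. A larger pseudocount compresses ratios of low genes by construction. The cause of the other shifts was not tested.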
